A study of Mus musculus with 1 sample.

Results

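The platelet and megakaryocyte genes described here are 10 named rows of the single-cell count table: Pf4, Ppbp, Vwf, Gp9, Gp5, Gp1bb, Itga2b, Treml1, F2r and Cd9. They were chosen by name, are 10 of 25661 genes in the table, and all 10 had counts. Megakaryocytes are the large marrow cells that shed platelets. Their precursors branch from stem and progenitor cells beside the erythroid and the basophil and mast cell paths, and they switch on the platelet's surface receptors and granule proteins before platelets form. The genes fall into the granule proteins of that programme (Pf4, Ppbp, Vwf), the subunits of the receptor complex that binds von Willebrand factor (Gp9, Gp5, Gp1bb), and other platelet membrane proteins (Itga2b, Treml1, F2r, Cd9).

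All cells came from 1 mouse bone marrow library, made on the BD Rhapsody microwell system with TAS-Seq amplification. The pool held Lin- cKit+ progenitors and GMP-MoPs of 1 naïve mouse and 1 mouse injected with LPS (lipopolysaccharide, a bacterial cell wall component), and cMoPs of 1 naïve mouse. Each sorted population carried 1 of 5 barcoded streptavidin tags, A961 to A965, but the labels used here do not pair tags with populations, mice or LPS, so tags are compared only as tags. The labels give no strain, age, LPS dose or time. After filtering, 10528 cells with 1 tag were kept. A963 had 4716 and A965 had 5567 of them, and the small tags A961, A962 and A964 had 68, 104 and 73, at medians of 20430.5 to 27801 counts per cell. No tag was replicated, so no test was possible and no p-value is given. Every interval is an exact 95% interval for counting error alone, which leaves out the spread between cells, mice and captures.

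Cells were placed in lineage gates with marker lists that hold none of the 10 genes. The megakaryocyte gate rested on 10 markers found in the table and took 67 cells, 0.636% of all cells. Cavin2, a caveola protein of platelets and megakaryocytes, had a count in 63 of the 67 cells, and its summed level was 328 CPM (counts scaled to a total of 1000000) there against 0.264 CPM in all other cells. Rab27b, a GTPase of platelet granule secretion, was at 181 against 0.838 CPM. Kit, the receptor used in the sort, was at 44.5 CPM in the gate, with a count in 31 of the 67 cells. Markers of other lists were present too: the erythroid marker Car2 had a count in 61 of the 67 cells and stood at 257 CPM, and the stem marker Meis1 was at 104 CPM against 5.36 CPM elsewhere. Endothelial markers summed to 45.6 CPM in the gate and 28.7 CPM elsewhere, of which Pecam1, a gene that platelets also express, made up 40.7 CPM, with Emcn at 0, Cdh5 at 2.17 CPM and Kdr at 2.71 CPM. T and NK cell markers summed to 423 against 274 CPM, nearly all of it Nkg7 (421 CPM), with Cd3e and Trbc2 at 0, and macrophage markers to 28.8 against 38.0 CPM. Their part in the results was not tested. The gate asked for counts of at least 3 markers in a cell, a minimum set after the 10 genes' values under looser gates had been seen. With 1 marker enough, the gate held 170 cells, and the ratios to other cells under that gate are given beside the results.

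The gene starts were searched for short motifs that erythroid and megakaryocyte regulators recognise. RefSeq promoters (GRCm38.p6) of 300 bases, from 250 before to 50 after the start, were found for 9 of the 10 genes, all except Vwf. The GATA letters AGATAA, on either strand, stood in the promoters of Pf4 and Gp5 and in 11.2% of all 32851 promoters. The ETS letters AGGAAG, on either strand, stood in 6 of the 9 (Pf4, Gp9, Gp5, Gp1bb, Itga2b and Cd9) and in 35.4% of all promoters. The AP-1/NF-E2 letters TGAGTCA were found for F2r only (5.2% of all promoters), and TATAAA for Ppbp only (13.6%). A match says only that the letters are there.

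Promoters of 5 genes that the results turn on are written 5′ to 3′ on each gene's strand, with the GATA and ETS letters of either strand in capitals. Pf4 (chr5:90772185-90772484, plus strand) and Gp5 (chr16:30310732-30311031, minus strand) are the pair with the GATA letters. Itga2b (chr11:102469834-102470133, minus strand) was the gene shared with basophil and mast cells. Gp1bb (chr16:18622354-18622653, minus strand) and Cd9 (chr6:125494711-125495010, minus strand) were the genes with most of their counts in neutrophil-gated cells. In Pf4 the GATA letters begin at base 37 after the start and in Gp5 at bases 93 and 77 before it. The ETS letters nearest to the start begin 9 bases before it in Pf4, 48 in Gp5 and 43 in Itga2b, and 203 before it in Cd9, while in Gp1bb they begin at base 21 after it.
Pf4: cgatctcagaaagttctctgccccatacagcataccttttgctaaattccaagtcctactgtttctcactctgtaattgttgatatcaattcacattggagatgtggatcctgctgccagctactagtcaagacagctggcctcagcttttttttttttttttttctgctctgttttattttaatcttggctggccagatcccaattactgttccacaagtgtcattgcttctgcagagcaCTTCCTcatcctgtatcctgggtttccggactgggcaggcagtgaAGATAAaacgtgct
Gp5: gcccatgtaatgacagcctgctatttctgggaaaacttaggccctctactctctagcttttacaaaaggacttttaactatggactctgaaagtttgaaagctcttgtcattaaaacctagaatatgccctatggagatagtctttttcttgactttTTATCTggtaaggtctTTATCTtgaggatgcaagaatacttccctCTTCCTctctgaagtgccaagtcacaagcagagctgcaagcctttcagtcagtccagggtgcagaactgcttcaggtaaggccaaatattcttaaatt
Itga2b: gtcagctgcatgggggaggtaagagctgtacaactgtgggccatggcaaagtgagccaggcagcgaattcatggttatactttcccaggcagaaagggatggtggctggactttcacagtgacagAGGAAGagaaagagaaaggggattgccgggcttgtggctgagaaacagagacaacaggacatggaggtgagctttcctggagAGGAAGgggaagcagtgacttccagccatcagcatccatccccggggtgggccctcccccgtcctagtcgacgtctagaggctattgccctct
Gp1bb: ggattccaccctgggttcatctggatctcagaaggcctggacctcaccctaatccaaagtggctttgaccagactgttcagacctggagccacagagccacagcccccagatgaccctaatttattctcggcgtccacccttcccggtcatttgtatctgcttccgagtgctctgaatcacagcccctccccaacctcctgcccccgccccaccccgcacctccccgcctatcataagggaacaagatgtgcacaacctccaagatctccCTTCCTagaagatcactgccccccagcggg
Cd9: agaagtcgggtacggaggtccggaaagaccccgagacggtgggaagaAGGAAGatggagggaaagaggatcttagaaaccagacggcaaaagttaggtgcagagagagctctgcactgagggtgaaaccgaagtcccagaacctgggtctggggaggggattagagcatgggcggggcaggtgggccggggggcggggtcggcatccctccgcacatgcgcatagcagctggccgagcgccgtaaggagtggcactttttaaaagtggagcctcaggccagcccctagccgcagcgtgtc

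In the megakaryocyte gate every one of the 10 genes had its highest level of any gate large enough to describe. For 8 of them, Ppbp included, the summed level was at least 10-fold above that of all other cells. Of 8830 genes with at least 10 CPM in the higher group, 14.7% were at least 2-fold higher in the gate, 10.9% at least 2-fold lower and 1.44% at least 10-fold higher. Ppbp stayed under that minimum, and of the other 9 genes all except Cd9 reached it only through the gate, where they were high, so their number past 2-fold is not set against these shares. The median log2 ratio of all genes tested was 0.30. In each of 9 other settings of the cells, gate, depth and weighting, 8 of the 10 genes were again at least 10-fold higher. The stricter gate threshold took the same 67 cells, and dropping the cell filter left the gate at 67. Those settings could hardly change the outcome. How much of each gene's RNA lay in the gate differed widely: 87.3% of all Pf4 counts, 71.8% of Treml1, 50% of Ppbp, 19.2 to 37.6% of Gp5, Itga2b, F2r, Vwf and Gp9, and only 2.90% of Gp1bb and 2.22% of Cd9.

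**Figure D1:**
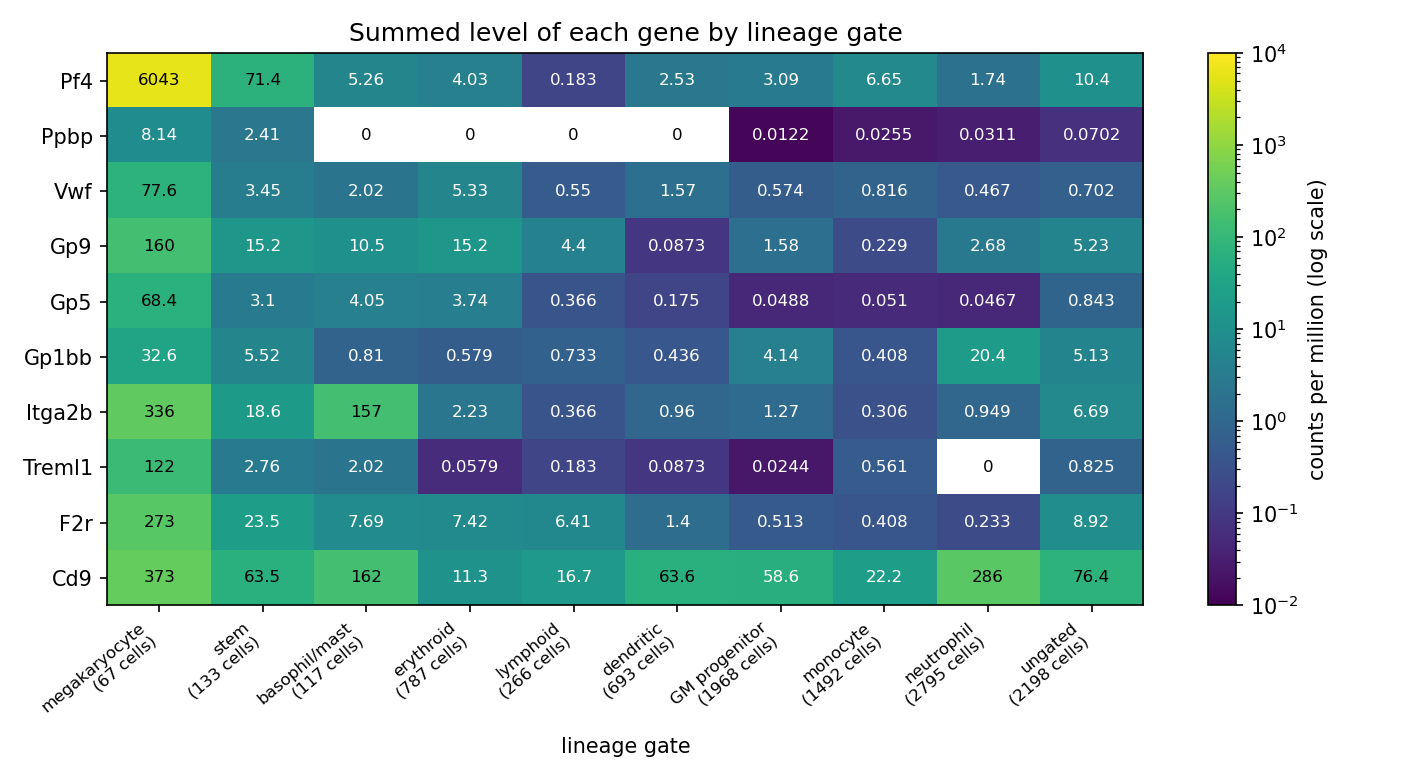
Each tile gives the summed CPM of a gene (rows) in a lineage gate (columns, with the number of cells), coloured on a log scale; white tiles are at 0. The megakaryocyte column holds the highest value of each row, with Pf4 at 6043, while Cd9 is also high in the neutrophil gate (286) and Itga2b in the basophil and mast cell gate (157).

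Pf4 encodes platelet factor 4, a chemokine stored in platelet alpha granules (chr5:90772435-90773383, plus strand). It had 11133 counts in the 67 gated cells, a level of 6043 CPM (interval 5932 to 6157), against 5.39 CPM in all other cells, a ratio of 1122 (1065 to 1183). Single gated cells ranged from 0 to 199 counts per 10000, with a median of 39.2, and 59 of 67 had at least 1 count. The ratio depended on the setting: it was 621 with 1 marker enough for the gate, 656 with every cell thinned to 8800 counts and 683 in the cluster that held 63 of the 67 cells. The 5 cells with the most Pf4 held 33.9% of the gate's counts.

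Outside the gate Pf4 was low but not even. The stem gate stood next, at 71.4 CPM (62.0 to 81.8) with counts in 23 of 133 cells, and the lymphoid gate was lowest, at 0.183 CPM with a count in 1 of 266 cells. Median depths of these gates were alike, at 17580 and 17695 counts per cell. Of 61 cells with at least 20 Pf4 counts, 50 were megakaryocyte-gated, 5 ungated, 3 monocyte-gated, 2 stem-gated and 1 erythroid-gated. The 3 monocyte-gated cells held 140 of that gate's 261 Pf4 counts, carried no megakaryocyte gate marker and had a count of at most 1 other gene of the 10. These 3 cells were picked out after their values were seen.

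Ppbp encodes the precursor of the platelet basic protein chemokines, and it lies next to Pf4 (chr5:90768518-90770063, plus strand), ending 2371 bases before Pf4 starts. It was barely seen. The whole library held 30 Ppbp counts, 15 of them in 6 gated cells, where the level was 8.14 CPM (4.56 to 13.4) against 0.0501 CPM elsewhere, a ratio of 163 (74.1 to 357). The ratio was 94.7 with 1 marker enough, 81.4 without the highest cell of each tag, and 70.7 to 214 over all other settings. The highest cell had 4 counts. No Ppbp count was found in the erythroid gate (787 cells, where 3 counts would be 0.0869 CPM), nor in the basophil and mast cell, lymphoid or dendritic gates.

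Vwf encodes von Willebrand factor, the large adhesive protein of alpha granules and of endothelium (chr6:125546774-125686679, plus strand). Its level was 77.6 CPM in the gate and 1.23 CPM elsewhere, a ratio of 63.0 (51.6 to 76.7), and 36 of 67 gated cells had a count. The ratio was 33.1 with 1 marker enough and ran from 30.2 to 76.5 over all other settings. The next level was that of the erythroid gate, 5.33 CPM (4.59 to 6.16), with 105 of 787 cells counted, and its interval overlapped that of the stem gate at 3.45 CPM (1.65 to 6.34).

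The receptor for von Willebrand factor is built from 4 chains, of which Gp9, Gp5 and Gp1bb are among the 10 genes. Gp9 (chr6:87778072-87779768, plus strand) was at 159.6 CPM in the gate and 4.12 CPM elsewhere, a ratio of 38.7 (34.0 to 44.0), or 22.1 with 1 marker enough, with counts in 48 of 67 cells and a per-cell range of 0 to 5.07 per 10000. Its level in the erythroid gate (15.2 CPM, 14.0 to 16.6) and in the stem gate (15.2 CPM, 11 to 20.4) did not differ beyond counting error. Erythroid-gated cells were deep, at a median of 41544 counts, and held a Gp9 count in 26.8% of cells, or 10.3% once thinned to 8800 counts, against 1.5% of thinned lymphoid-gated cells.

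Gp5 (chr16:30307685-30310779, minus strand) was at 68.4 CPM in the gate and 0.698 CPM elsewhere, a ratio of 98.0 (78.0 to 123), or 55.3 (44.1 to 69.1) with 1 marker enough and 124 after thinning. Gated cells with a Gp5 count numbered 33 of 67, and the highest cell had 13 counts. Next came the basophil and mast cell gate at 4.05 CPM (1.94 to 7.44) and the erythroid gate at 3.74 CPM (3.12 to 4.44), with intervals that overlap. In the neutrophil gate Gp5 had 3 counts in 2795 cells.

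Gp1bb was unlike its partner chains (chr16:18620317-18622403, minus strand). The gate held 60 counts, 32.6 CPM (24.9 to 41.9), against 6.70 CPM elsewhere, a ratio of 4.86 (3.70 to 6.29), which was 2.95 with 1 marker enough and 2.78 in the cluster. Most Gp1bb counts, 63.5%, lay in neutrophil-gated cells, at 20.4 CPM (19.3 to 21.6) with a count in 914 of 2795 cells. The order of these gates was not stable: neutrophil over megakaryocyte gate was 0.627, but 1.03 (0.814 to 1.33) with 1 marker enough and 1.10 (0.871 to 1.40) for the cluster in place of the gate. In GENCODE M21 (GRCm38), Gp1bb overlaps Septin5, a septin gene on the same strand, and Gm49601, so reads of 1 can be counted for another.

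Set beside Septin5, the Gp1bb counts gave another order of the gates. Septin5 was at 93.3 CPM in the neutrophil gate and 18.5 CPM in the megakaryocyte gate. There were 0.219 Gp1bb counts per Septin5 count in neutrophil-gated cells (1313 against 5996), 0.188 in granulocyte-monocyte progenitors, 0.253 in erythroid-gated and 0.246 in ungated cells. Stem-gated cells had 0.593 (0.298 to 1.14, from 16 Gp1bb counts). The megakaryocyte gate had 1.76 Gp1bb counts per Septin5 count (1.14 to 2.77), or 0.866 (0.621 to 1.20) with 1 marker enough, and the interval of the stem gate met the former at 1.14 and overlapped the latter. Across all cells, Septin5 was also the gene whose values were most like those of Gp1bb, with a Pearson correlation of 0.44 over 10528 cells. Septin5 was set beside Gp1bb after the values were seen. The part of shared reads in the neutrophil-gate level was not tested.

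**Figure D2:**
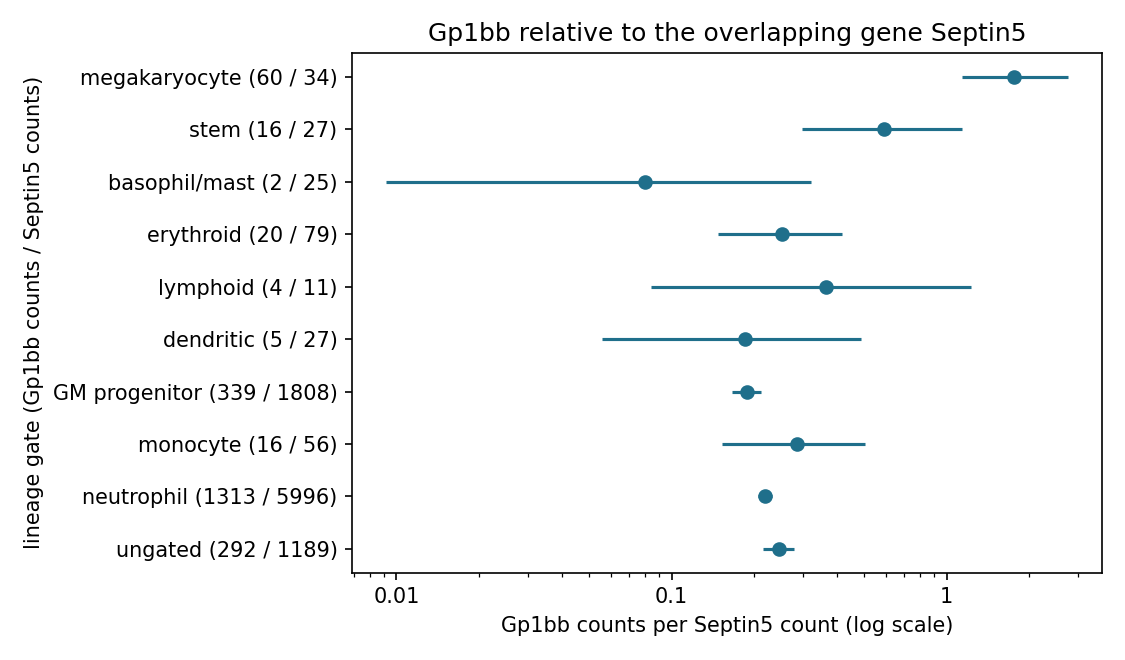
Points give Gp1bb counts per Septin5 count in each lineage gate on a log axis, with exact 95% counting intervals and both counts in the labels. The megakaryocyte gate is at 1.76 and the stem gate at 0.593, with intervals that meet at 1.14, and the neutrophil, granulocyte-monocyte progenitor, erythroid and ungated cells lie between 0.188 and 0.253.

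Itga2b encodes the alpha chain (CD41) of the platelet fibrinogen receptor, and it is also known from early blood progenitors and mast cells (chr11:102453297-102470122, minus strand). Its level was 336 CPM in the gate (310.1 to 364) and 3.81 CPM elsewhere, a ratio of 88.3 (79.9 to 97.5), with counts in 63 of 67 cells. That ratio was 53.4 with 1 marker enough, 55.9 after thinning and 56.0 as a mean over cells. Single gated cells ran from 0 to 10.1 per 10000, with a median of 3.05. The basophil and mast cell gate was second at 157 CPM (142 to 173), and 62.4% of its cells kept an Itga2b count after thinning, against 79.1% in the megakaryocyte gate. The stem gate followed at 18.6 CPM, and no other gate described passed 2.23 CPM, while ungated cells stood at 6.69 CPM. The eosinophil gate, left out as too small, held 50 Itga2b counts in 10 of its 12 cells, 124 CPM (92.3 to 164). Over all cells Itga2b was most like Gata2 (correlation 0.57), which was at 112 CPM in the megakaryocyte gate and 311 CPM in the basophil and mast cell gate.

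Treml1 encodes TLT-1, a receptor kept in platelet alpha granules and shown on activated platelets (chr17:48359916-48367176, plus strand). It was at 122 CPM in the gate and 0.294 CPM elsewhere, a ratio of 414 (322 to 536), and it was 244 with 1 marker enough, the lowest of the other settings. A count was found in 48 of 67 gated cells and in 49 of 10461 others. The neutrophil gate held no Treml1 count in 2795 cells, where 3 counts would be 0.0467 CPM. Of the 10 genes, only Pf4 had a larger share of its counts in the gate.

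F2r encodes PAR1, a thrombin receptor that human platelets carry and mouse platelets are known to lack (chr13:95601803-95618487, minus strand). In these mouse marrow cells it was at 273 CPM in the gate (249.7 to 298) and 3.25 CPM elsewhere, a ratio of 83.9 (75.2 to 93.5), with counts in 62 of 67 gated cells. Over the other settings the ratio ran from 54.6, with 1 marker enough, to 115, in the cluster. Per-cell values ran from 0 to 7.75 per 10000, with a median of 2.34. The stem gate was second at 23.5 CPM (18.2 to 29.7). F2rl3, which encodes the thrombin receptor PAR4 of mouse platelets, was at 39.1 CPM in the gate, 33.1 CPM in the stem gate and 2.79 CPM over all cells outside the gate.

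Cd9 encodes a tetraspanin that is abundant on platelets and also made by many other blood cells (chr6:125460266-125494791, minus strand). Its level in the gate, 373 CPM (346 to 402), was 3.69 times that of all other cells (3.42 to 3.98), and 64 of 67 cells had a count. It was 2.4 times that level with 1 marker enough and 2.15 times in the cluster. Neutrophil-gated cells were close behind at 286 CPM (282 to 291) with counts in 95.7% of 2795 cells, and they held 59.5% of all Cd9 counts. That order turned with the gate: neutrophil over megakaryocyte gate was 0.768, but 1.18 with 1 marker enough and 1.31 for the cluster. The basophil and mast cell gate came next at 162 CPM, and erythroid-gated cells were lowest of the gates described at 11.3 CPM. Over all cells Cd9 was most like the neutrophil granule genes Ngp and Camp, both at a correlation of 0.73, which were themselves at 1117 and 1850.5 CPM in the megakaryocyte gate and at 11970.1 and 15079 CPM elsewhere.

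Single cells carried the genes together. With all cells thinned to 8800 counts, 47 of 67 gated cells (70.1%, 57.7 to 80.7%) had counts of at least 5 of the 10 genes, against 10 of 10461 other cells (0.0956%, 0.0458 to 0.176%). As deposited, 56 gated and 33 other cells reached 5. Of those 33, 25 were ungated, 5 stem-gated, 2 erythroid-gated and 1 in the basophil and mast cell gate. The cluster that held most gated cells also held 21 of the 33. Among the 25 ungated cells, 24 had 2 or fewer gate markers, under the gate's minimum of 3. With 1 marker enough for the gate, 30% of its thinned cells reached 5 genes, and 29.2% did in the cluster. Among the gated cells the genes' log values were loosely related: over 45 pairs the median correlation was 0.28, from −0.09 to 0.56, with Pf4 and Treml1 the closest pair. These cells share 1 library and differ in depth, so the correlations are a description.

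**Figure D3:**
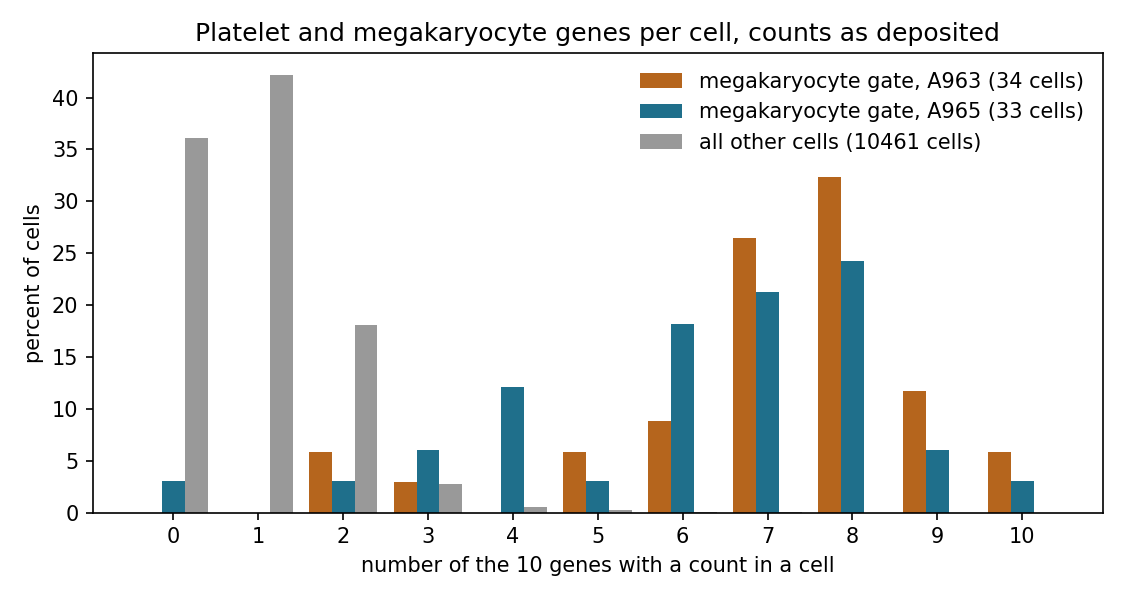
Bars give the percent of cells (vertical axis) by how many of the 10 genes had a count (horizontal axis), for gated cells of A963 and A965 and for all other cells, with counts as deposited. Most gated cells have 6 or more of the genes, while 3776 of the 10461 other cells have none and 4413 have 1.

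Averaging the log values of the 10 genes in each cell gave a profile whose nearest other genes were Cavin2 (correlation 0.63 over 10528 cells), F2rl2 and Rab27b (both 0.48), which are markers of the gate itself. Next came Ngp, Camp and Cd63 at 0.40, Ltf and S100a9 at 0.39, and S100a8 at 0.38. Ngp, Camp, Ltf, S100a8 and S100a9 are neutrophil genes, and each was lower in the megakaryocyte gate than elsewhere. Cd9 was the gene of the 10 with the most counts and was itself nearest to Ngp and Camp.

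Lists of other megakaryocyte genes, none of them among the 10, stood as follows in the gate against all other cells, beside the 14.7% of all genes that were at least 2-fold higher. In the counts of each list, higher and lower mean at least 2-fold. Of 8 platelet surface receptors tested, 7 were higher and none lower, with Itgb3, the partner of Itga2b, at 128 against 11.6 CPM and Gp1ba, the fourth chain of the von Willebrand factor receptor, at 20.1 against 0.167 CPM. Of 15 transcription regulators, 10 were higher, among them Lmo2 at 470.1 against 146 CPM and Mef2c at 383 against 53.6 CPM. None was lower at that cut-off, though Lyl1 was at 39.1 against 71.4 CPM, a ratio of 0.548 (0.428 to 0.690). Gata1, the master regulator of erythroid and megakaryocyte genes, was at 62.4 CPM in the gate and higher, at 142 CPM, in the erythroid gate. Cytoskeleton and signalling genes were mixed: 8 of 17 were higher, among them Rap1b at 867 against 159 CPM and Plek at 362 against 27.2 CPM, and 2 were lower, with Flna at 105 against 270.1 CPM and Actn1 at 11.4 against 26.7 CPM. Granule genes were divided, with 5 of 10 higher (Tgfb1 at 154 against 61.0 CPM and Timp3 at 33.7 against 0.297 CPM) and F5, coagulation factor V, lower at 8.69 against 18.8 CPM, while Srgn, the granule proteoglycan serglycin, was at 751 against 912 CPM. The median log2 ratios were 3.23 for receptors, 1.74 for regulators, 0.89 for granule and 0.80 for cytoskeleton genes, against 0.30 for all genes tested.

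Between the tags, the megakaryocyte-gated cells divided evenly: A963 had 34 (0.721% of its cells, 0.5 to 1.01%) and A965 had 33 (0.593%, 0.408 to 0.831%). None were found in A961, A962 or A964, where the upper Clopper-Pearson limits were 5.28%, 3.48% and 4.93% of cells. Only 100 cells were loaded for each of these tags, against 15000 for each of A963 and A965. In those small tags Cd9 was the only one of the 10 genes with more than 8 counts, at 57.0 CPM in A961, 55.2 CPM in A962 and 64.8 CPM in A964. Pf4 had 4, 6 and 1 counts there, while Ppbp and Treml1 had none in any of the 3 tags. At their depth, 3 counts would be 0.968 to 1.53 CPM.

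Pf4 was lower in A965 than in A963, both over all cells and inside the gate. Over all cells the A965 level was 21.8 CPM and the A963 level 75.4 CPM, a ratio of 0.288 (0.278 to 0.3). Megakaryocyte-gated cells held 2961 of the 3826 Pf4 counts of A965 and 8172 of the 8910 of A963. The comparisons over all cells and inside the gate thus share most of their counts. Of 8025 genes with at least 10 CPM, 2.11% had an A965 level at least 2-fold below that of A963 and 1.01% at least 2-fold above. Only Pf4 and Cd9 of the 10 genes reached that level, and Cd9 was at 106 and 101 CPM, a ratio of 1.05 (1.02 to 1.07) that turned to 0.930 after thinning and 0.920 as a mean over cells. For the 8 genes under 10 CPM, the ratios over all cells were 0.324 to 0.411 for Gp5, Ppbp, Gp9 and Vwf, 0.558 for F2r, 0.561 for Treml1, 0.691 for Itga2b and 1.30 for Gp1bb. After thinning, Treml1 was at 0.914 (0.613 to 1.36) and Gp1bb at 1.12 (0.963 to 1.29), both with intervals that held 1, while Ppbp was at 0.121 and Gp5 at 0.494. The mix of cells moved with these ratios: 620 A963 cells but 157 A965 cells were erythroid-gated, and 1200 against 1562 were neutrophil-gated. Their part in the ratios over all cells was not tested.

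Inside the megakaryocyte gate, all 10 genes had ratios of A965 over A963 below 1, but with the cluster in place of the gate Gp1bb was at 1.11 (0.692 to 1.80) and Itga2b at 0.986 (0.861 to 1.13). Pf4 stood at 3122 CPM for A965 and 9142 CPM for A963, a ratio of 0.342 (0.327 to 0.356). Cell by cell, Pf4 ran from 0 to 133 per 10000 in A965, with a median of 15.4, and from 0 to 199 in A963, with a median of 56.3. The ranges overlapped widely, and both tags held cells with no Pf4 count. Without the cell with the most counts of the 10 genes in each tag, the ratio was 0.294, and it was 0.407 at most, in the gate made from the number of markers.

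Of the other granule genes, Vwf stood at 39.0 CPM for A965 and 119 CPM for A963, a ratio of 0.329 (0.22 to 0.483), and Ppbp had 5 against 10 counts, a ratio of 0.471 with an interval that held 1 (0.126 to 1.51). The receptor chains Gp9, Gp5 and Gp1bb had ratios of 0.508 (0.396 to 0.649), 0.684 (0.471 to 0.988) and 0.771 (0.446 to 1.32). Treml1 was at 0.555 (0.418 to 0.733), but the value ran from 0.392 without the highest cells to 0.895 after thinning. The other membrane proteins Cd9, F2r and Itga2b were at 0.718 (0.615 to 0.837), 0.745 (0.622 to 0.891) and 0.831 (0.707 to 0.976). Thinned to 8800 counts per cell, Gp5 was at 0.773 (0.395 to 1.49), Cd9 at 0.817 (0.628 to 1.06) and F2r at 0.836 (0.605 to 1.15). Each of these intervals held 1, while thinned Itga2b was at 0.602 (0.441 to 0.818). Pf4 and Vwf were at least 2-fold lower, as was Ppbp, which reached 10 CPM only through A963. Among 8870 genes tested in the gate, 9.03% were at least 2-fold lower and 8.84% at least 2-fold higher, and the median log2 ratio was 0.01.

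**Figure D4:**
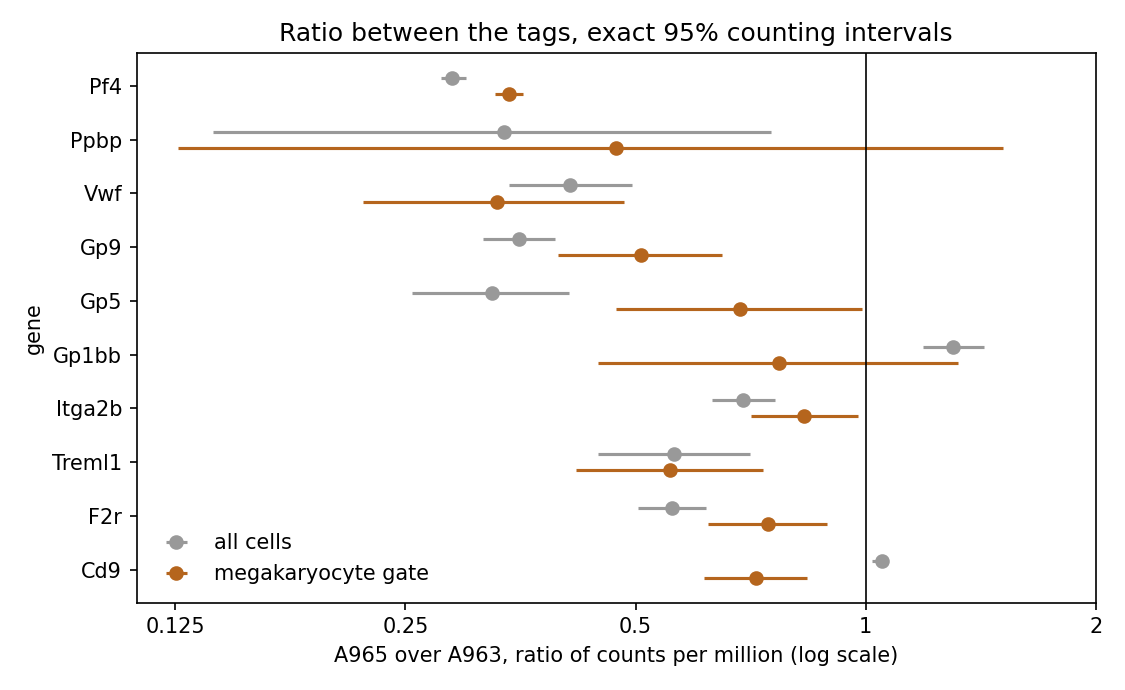
Points give each gene's ratio of A965 over A963 in CPM on a log axis, over all cells and inside the megakaryocyte gate, with exact 95% counting intervals; the vertical line marks a ratio of 1. Inside the gate every point lies left of the line, and the intervals of Ppbp and Gp1bb cross it.

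The gate's own markers moved the same way as the 10 genes. Their summed level was 755 CPM in the gated A965 cells and 1156 CPM in those of A963, with a median of 4 and 5 markers per cell. Depth was alike, at medians of 24097 and 23438 counts, and Kit was at 45.3 and 43.6 CPM. At least 5 of the 10 genes were seen in 18 of 33 thinned A965 cells (54.5%, 36.4 to 71.9%) and in 29 of 34 A963 cells (85.3%, 68.9 to 95%). The lists of other megakaryocyte genes had median log2 ratios of −0.46 for receptors, −0.61 for granule genes, −0.57 for regulators and −0.34 for cytoskeleton and signalling genes. Markers of other cells differed too: endothelial markers summed to 31.6 CPM in gated A965 cells and 60.4 CPM in those of A963, macrophage markers to 20 and 38 CPM, and T and NK cell markers to 492 and 350.2 CPM. Their part in the ratios was not tested. Xist, the RNA of the inactive X chromosome, was at 11.8 CPM over all A965 cells and 611 CPM over all A963 cells. In the small tags A961, A962 and A964 it was at 486, 409 and 59.7 CPM. Tag, mouse, sex of the mouse, treatment and sorted population cannot be told apart here.

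**Figure D5:**
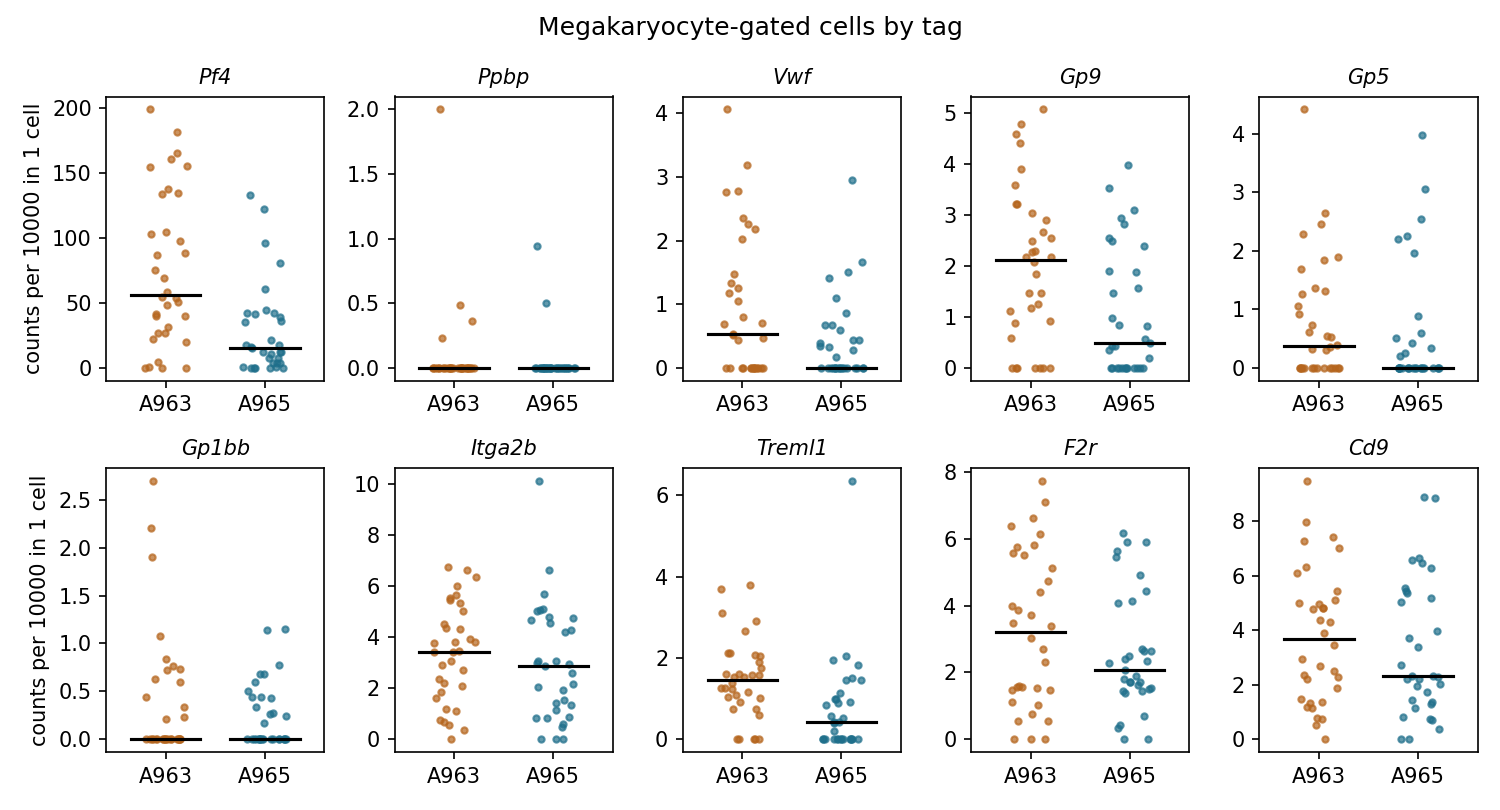
Each point is 1 megakaryocyte-gated cell, in counts per 10000 (vertical axes differ between genes), for the 34 cells of A963 and the 33 cells of A965; black lines are medians. The Pf4 median is 56.3 in A963 and 15.4 in A965, and the ranges of the tags overlap for all 10 genes.

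In other gates the tags did not share 1 direction. Pf4 was lower in A965 also in the stem gate, at 50.3 against 104 CPM, and in the monocyte gate, at 5.18 against 10.8 CPM, where 3 cells held most counts. In the stem gate 1 cell of each tag held most Pf4 counts, 66 of 89 in A965 and 78 of 118 in A963. The shares of stem-gated cells with a Pf4 count were alike, at 17.8% in A965 and 16.7% in A963. In granulocyte-monocyte progenitors the Pf4 level was 3.44 CPM for A965 and 2.39 CPM for A963, a ratio of 1.44 (1.07 to 1.96). Itga2b in the basophil and mast cell gate stood at 120 CPM for A965 and 216 CPM for A963, a ratio of 0.556 (0.453 to 0.682). In the erythroid gate Itga2b was at 5.44 against 1.41 CPM, but 14 of its 39 A965 counts came from 1 cell.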

How the data were processed

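The series is 1 mouse bone marrow library with 5 tags, and the tag of each cell was read from its name, per the file headers. The deposited values are raw counts, whole numbers for each gene in each cell, and the lowest cell total was 8822. Values of 2 were 54.7% as frequent as values of 1, and repeated reads of 1 molecule may be among the counts. The aligner, annotation, use of strand and counting tool are not given in the sources used here. The submitters' processing notes name the build GRCm38 and the tools Seurat 4.2.0 and R 4.2.1, with no role given.

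Of 10731 cells, 190 named doublets by the authors and 6 with no tag were set aside. A minimum of 500 genes and a maximum of 20% mitochondrial counts per cell left out 7 and kept 10528. Tags shared 0 cell barcode numbers. Scrublet called 223 cells (2.12%), which stayed in. The summed depth was 118142775 counts in A963 and 175876760 in A965, and 1965440, 3100547 and 2360420 in the small tags A961, A962 and A964.

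For the gates, the log of counts per 10000 was standardised per gene and averaged over each of 10 marker lists. A cell took its highest list if the score was at least 0.5, led by at least 0.25, and at least 3 markers had a count. The scoring rule was chosen after the gates and the 10 genes' values under thresholds of 0.5 and 0.25, and of 1 and 0.5, with no marker minimum had been seen. Of the 67 gated cells, 22 had exactly 3 markers, and 103 other cells passed the score with 1 or 2. The markers Tubb1, Mmrn2, Cma1 and Tpsb2 were missing from the table. The eosinophil gate, with 12 cells, was too small to describe.

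The members and lists were chosen with earlier results of these data known. Counts were summed and scaled to CPM, with exact Poisson, Clopper-Pearson and conditional ratio intervals (scipy 1.17.1). A gene was called at 2-fold with at least 10 CPM in the higher group, and the floor is 3 counts per group. Thinned shares use 8800 counts per cell. Clusters came from scanpy 1.11.5 with leidenalg 0.10.2 (2000 variable genes, 30 components, 15 neighbours, resolution 1), made without the members. All 10 genes are named in full, list genes are given by count with some of the most abundant or best known by value, and the genes most correlated with the mean of the members are named. Some genes that this rule would name are not reported here. Which list genes beyond the 5 most abundant to print was chosen after their values were seen. The ratio step was tested on simulated counts. Coordinates are 1-based, from GENCODE M21 (GRCm38). No gate or tag was replicated, so no replicate could be left out.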

Additional observations from a re-analysis of the deposited data

Results flagged for a closer look

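Cells the authors named doublets, which no comparison above uses, carried counts of these genes. Over 190 such cells, Pf4 was at 55.3 CPM, Gp9 at 3.51 CPM, Gp1bb at 10 CPM, Itga2b at 4.56 CPM and Cd9 at 101 CPM. Those with at least 20 counts are listed, a minimum set after the values were seen.

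For 4 genes the ratio of A965 over A963 lay on opposite sides of 1 in different gates, each with an interval clear of 1 and at least 50 counts over both tags, a minimum also set after the values were seen. The difference between gates was not tested, and the intervals cover counting error only. Some of these ratios rest on few cells. In the stem gate 1 cell of each tag held 66 of 89 A965 and 78 of 118 A963 Pf4 counts. In the monocyte gate 3 cells held 140 of 261 Pf4 counts. In the erythroid gate 1 cell held 14 of the 39 A965 Itga2b counts. Pf4 was at 1.44 in granulocyte-monocyte progenitors and at 0.342, 0.483 and 0.480 in the megakaryocyte, stem and monocyte gates. Itga2b was at 3.86 in the erythroid gate, 0.831 in the megakaryocyte gate and 0.556 in the basophil and mast cell gate. F2r was at 1.78 in the erythroid gate and 0.745 in the megakaryocyte gate. Cd9 was at 1.29 (1.01 to 1.62) in the erythroid gate, and at 0.718, 0.683, 0.692 and 0.790 in the megakaryocyte, stem, basophil and mast cell, and neutrophil gates. After thinning, the share of erythroid-gated cells with a Cd9 count was 6.37% in A965 (3.10 to 11.4%) and 8.87% in A963 (6.75 to 11.4%).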

How the results depend on the processing

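Sizes moved with the gate and with the weighting of cells. The gate took 67 cells, 192 with the cluster in its place and 170 with 1 marker enough, an alternative chosen after seeing the data. Against other cells Pf4 stood at 1122-fold, and at 1064-fold in the gate made from the number of markers, 683-fold in the cluster, 656-fold thinned, 675-fold as a mean over cells, 1049-fold without the highest cell of each tag and 621-fold with 1 marker enough. For A965 over A963, Pf4 over all cells was 0.374 thinned, 0.380 as a mean over cells, 0.305 with median-of-ratios scaling and 0.272 without the highest cells. In the gate it was 0.407 with the number of markers, 0.358 in the cluster, 0.364 thinned, 0.376 as a mean over cells and 0.294 without the highest cells. Gated cells with at least 5 of the genes came to 29.2% in the cluster, 40.3% at 2 counts for detection, 83.6% as deposited and 30% with 1 marker enough. Some directions turned, and the cause was not tested: Cd9 in the neutrophil over the megakaryocyte gate (1.31 in the cluster, 1.18 with 1 marker enough), Gp1bb in the same ratio (1.10 and 1.03), Gp1bb per Septin5 count in the megakaryocyte gate, which went below 1 (0.866 with 1 marker enough), Gp1bb for A965 over A963 in the gate (1.11 in the cluster, with an interval that holds 1), and Cd9 for A965 over A963 over all cells (0.930 thinned, 0.920 as a mean over cells). With a single library and 67 gated cells, a level of 3 counts in the gate is 1.63 CPM, and lower levels rest on 1 or 2 counts. No paired analysis was possible because the series is 1 library whose tags were not replicated.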
